A study of Homo sapiens with 6 samples.

Results

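The genes described here are the transcriptional end of the Hippo pathway in A549 cells, an established line from a human lung carcinoma. They comprise the coactivator genes YAP1 and WWTR1 (which encodes TAZ), the DNA-binding partner genes TEAD1 and TEAD4, the target genes CCN1, CCN2 and ANKRD1, and the target or feedback genes AMOTL2, LATS2 and AJUBA. The 10 members were taken by official symbol from the deposited table of 19240 genes, and all 10 passed the filter on low counts. The tested cells were held for 48 h without glucose and the control cells for 48 h with 25 mM glucose, with 3 libraries in each group and no other allele or agent named; they are also called glucose-free and glucose-fed below. Transcripts were counted from their 3' ends. The model is a single cell line, and the labels do not say whether the libraries of a group were separate cultures, so each p-value reflects the spread among libraries, possibly a technical one.

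The Hippo pathway is a kinase relay in which STK3 and STK4 activate the kinases LATS1 and LATS2. These phosphorylate YAP and TAZ and hold them in the cytoplasm, whereas unphosphorylated YAP and TAZ enter the nucleus, bind TEAD proteins and raise growth, adhesion and matrix genes. The control acts mainly on the YAP and TAZ proteins, which transcript counts do not measure. In epithelial tumor cells the pathway is known for answering cell density, attachment, actin tension and energy supply.

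Gene counts per library were 11086416 to 14060313 without glucose and 6701004 to 14259943 with glucose, and each member had 349 to 6486 counts in a library. On the second principal component (18.1% of the variance) replicate 1 with glucose scored −30.5, against 17.7 and 17.3 for the other libraries of its group, while the libraries without glucose scored from −19.1 to 18.2. Of 9 epithelial and A549 markers, 3 fell without glucose and 6 did not pass, while 10.7% of all genes tested were called lower. KRT8, KRT18 and AKR1B10 fell (log2 fold changes −1.18 ± 0.20, −0.90 ± 0.18 and −0.92 ± 0.18, SE). Those that did not pass went both ways. KRT7, ALDH1A1 and CDH1 had log2 fold changes of 0.23, 0.20 and 0.42, and KRT19, AKR1C1 and EPCAM had −0.49, −0.32 and −0.43. The summed level of the 9 markers was 8280 to 8641 CPM without glucose and 9911 to 11097 CPM with glucose. CDH1 and EPCAM were present at no more than 8.16 CPM. Of 11 markers of blood, endothelial and fibroblast cells, 3 (CD3E, COL1A2 and DCN) were at 0 in all libraries. The summed level of these 11 was 4.82 to 6.33 CPM without glucose and 15.4 to 16.6 CPM with glucose, most of it COL1A1. The 2 markers that passed the filter on low counts, COL1A1 and CD14, fell (log2 fold changes −1.37 ± 0.25 and −3.64 ± 0.88, SE). CD14 was near the floor, with 1, 0 and 2 counts without glucose and 8, 11 and 17 counts with glucose. The part of these shifts in the results below was not tested.

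Among the 10 members 3 fell without glucose, none rose and 7 did not pass. The genes that fell were CCN2, AMOTL2 and TEAD4. A gene passed at a p under 0.05 from edgeR's quasi-likelihood test, adjusted over all 11886 genes tested by Benjamini and Hochberg's method, and of those genes 10.7% were called lower and 11.6% higher. The median log2 fold change of the members was −0.33, against 0.02 over all genes tested. The groups of libraries did not overlap for 4 members, each lower without glucose (CCN2, AMOTL2, TEAD4 and TEAD1), as for 19.4% of all genes tested in that direction. The summed level of the members was 1034, 1015 and 1067 CPM without glucose and 1396, 1389 and 1438 CPM with glucose, for replicates 1, 2 and 3. WWTR1 and TEAD1, neither of which passed, had the highest levels of the members in every library. CPM are counts set relative to the scaled size of each library, and a log2 fold change is the level without glucose over that with glucose. In such bulk RNA, fewer cells expressing a gene and less of its RNA per cell cannot be told apart.

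**Figure D1:**
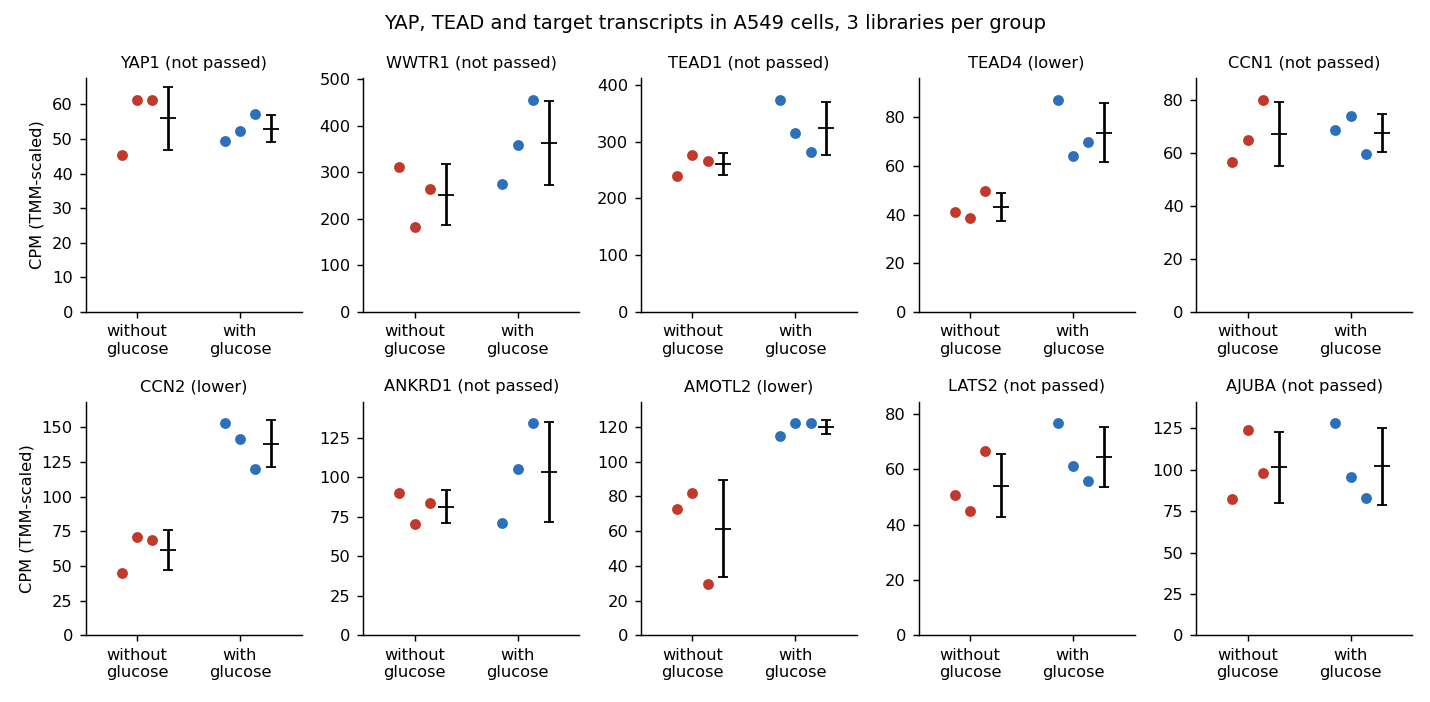
Level of each of the 10 genes in every library, in CPM on linear axes that start at 0, with cells without glucose on the left (red) and cells with glucose on the right (blue). Points are libraries, and the black bar beside them is the mean ± SD (n = 3). CCN2, AMOTL2, TEAD4 and TEAD1 have groups that do not overlap.

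The coactivator genes gave no call. YAP1, the main effector of the pathway, had 45.5, 61.2 and 61.4 CPM without glucose, against 49.3, 52.4 and 57.1 CPM with glucose. The groups overlapped, and the spread without glucose enclosed the values with glucose. Its log2 fold change was 0.08, with a 95% interval of −0.36 to 0.52 (edgeR adjusted p = 0.800). WWTR1, whose product TAZ shares the role of YAP, had 311, 182 and 263 CPM without glucose and 274, 358 and 456 CPM with glucose. Replicate 1 without glucose lay above replicate 1 with glucose, so the groups overlapped, but the other libraries were lower without glucose. The log2 fold change of WWTR1 was −0.53 (95% interval −1.07 to 0.02, edgeR adjusted p = 0.151). Summed over the 2 coactivator genes, the level was 244 to 356 CPM without glucose and 323 to 513 CPM with glucose. The log2 ratio of YAP1 to WWTR1 counts in a library averaged −2.15 ± 0.60 without glucose and −2.75 ± 0.26 with glucose (SD, n = 3 each). The ratios of the groups overlapped, and their difference of 0.60 gave a two-sided p of 0.2 by an exact permutation test. The smallest p that 3 against 3 libraries allow is 0.1.

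The TEAD genes encode the factors that bring YAP and TAZ to DNA, and TEAD4 and TEAD2 fell while TEAD1 and TEAD3 did not pass. TEAD4 had 41.0, 38.6 and 49.6 CPM without glucose, against 87.3, 64.1 and 69.8 CPM with glucose. Every library without glucose lay below every library with glucose. TEAD4 fell 1.71-fold, with a log2 fold change of −0.77 ± 0.21 (SE, edgeR adjusted p = 0.0196). The call was lost on leaving out glucose-free replicate 1 (adjusted p = 0.0582) or glucose-free replicate 2 (0.0574). TEAD1 had 239, 277 and 266 CPM without glucose and 374, 316 and 281 CPM with glucose. Again the groups did not overlap, but the difference did not pass. The log2 fold change of TEAD1 was −0.31 ± 0.20 (SE, 95% interval −0.74 to 0.12, edgeR adjusted p = 0.278).

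TEAD2 and TEAD3 are the remaining genes of the family and are not members. TEAD2 fell to 5.03, 10.9 and 8.77 CPM without glucose, against 23.5, 16.7 and 18.3 CPM with glucose, a log2 fold change of −1.23 ± 0.29 (SE, edgeR adjusted p = 0.00990). TEAD3 had 4.17 to 6.05 CPM without glucose and 3.24 to 5.65 CPM with glucose and did not pass (log2 fold change 0.27, edgeR adjusted p = 0.579). Over the 4 TEAD genes the summed level was 290, 332 and 330 CPM without glucose and 490, 401 and 373 CPM with glucose, without overlap. Most of this sum was TEAD1, which did not pass. Within a library, the log2 ratio of TEAD1 to TEAD4 counts averaged 2.60 ± 0.21 without glucose and 2.14 ± 0.15 with glucose (SD, n = 3 each). Every glucose-free library had a higher ratio than every glucose-fed one, and the difference of 0.47 gave the smallest p the design allows (exact permutation test, two-sided p = 0.1).

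CCN2, which encodes a secreted matrix protein also called CTGF, fell most among the members. It had 45.1, 71.3 and 68.9 CPM without glucose, against 153, 142 and 120 CPM with glucose. The groups were far apart, and the highest library without glucose did not reach the lowest with glucose. CCN2 fell 2.23-fold (log2 fold change −1.16 ± 0.23, SE; 95% interval −1.65 to −0.67; edgeR adjusted p = 0.00372), and 94.7% of all genes tested had a higher log2 fold change. It passed in each of the 6 fits that left out 1 library, with adjusted p from 0.00681 to 0.0179 and log2 fold changes from −1.29 to −0.98.

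CCN1, the closest relative of CCN2 and likewise a classical YAP target, did not follow it. CCN1 had 56.4, 64.7 and 80.1 CPM without glucose and 68.8, 74.0 and 59.6 CPM with glucose. The groups overlapped, with means of 67.1 ± 12.0 CPM without glucose and 67.5 ± 7.28 CPM with glucose (SD, n = 3 each). Its log2 fold change was −0.01 with a 95% interval of −0.46 to 0.44 (edgeR adjusted p = 0.986), and the sign turned on leaving out replicate 1 or replicate 2 of either group, with values from 0.00 to 0.10. The ratio of the pair separated the groups: the log2 ratio of CCN1 to CCN2 counts was 0.32, −0.14 and 0.22 without glucose, against −1.15, −0.94 and −1.0 with glucose. The glucose-free ratios were all higher than the glucose-fed ones, and the difference of 1.16 gave an exact permutation p of 0.1 (two-sided), the smallest possible here. This ratio is taken within a library and does not depend on library scaling. Of the other CCN genes, looked up after these values were seen, CCN3 and CCN5 had at most 6.58 CPM in any library and did not pass (log2 fold changes 0.76 and 0.87, edgeR adjusted p = 0.247 and 0.112), CCN4 had 3 counts over all libraries and CCN6 had 0.

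**Figure D2:**
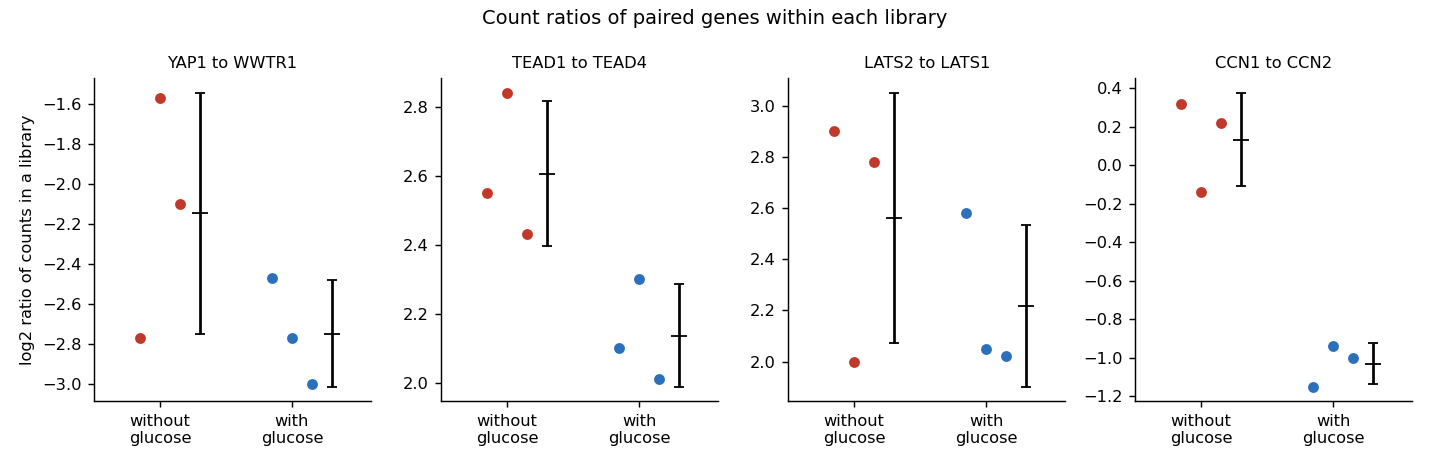
Log2 ratio of the counts of paired genes in each library, for cells without glucose on the left (red) and cells with glucose on the right (blue), with the mean ± SD beside the points (n = 3). The groups are separate for CCN1 to CCN2 and for TEAD1 to TEAD4 and overlap for YAP1 to WWTR1 and LATS2 to LATS1.

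ANKRD1, which encodes a nuclear ankyrin-repeat protein, is a further standard YAP readout. It had 90.3, 70.3 and 83.7 CPM without glucose, against 70.9, 105 and 134 CPM with glucose. Replicates 2 and 3 with glucose were the highest of the 6 libraries, while replicate 1 with glucose lay among those without. The log2 fold change was −0.34 (95% interval −0.87 to 0.18, edgeR adjusted p = 0.334), and it ran from −0.55 without replicate 1 with glucose to −0.11 without replicate 3 with glucose. WWTR1 showed the same order among the libraries with glucose, lowest in replicate 1 and highest in replicate 3, and CCN2 the opposite one.

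AMOTL2 encodes a junction protein of the angiomotin family that binds YAP and keeps it out of the nucleus, and is itself a YAP target. It had 72.9, 81.7 and 29.7 CPM without glucose, against 115, 122 and 122 CPM with glucose. All libraries without glucose were lower, and replicate 3 stood below the other libraries of its group. AMOTL2 fell 1.95-fold (log2 fold change −0.96 ± 0.31, SE; edgeR adjusted p = 0.0413). The call rested on the full set of libraries: it held on leaving out glucose-free replicate 2 (adjusted p = 0.0247) and was lost in each of the other 5 such fits. The adjusted p was 0.0568 or 0.0861 on leaving out glucose-free replicate 1 or 3, and 0.0615, 0.102 or 0.0949 on leaving out glucose-fed replicate 1, 2 or 3. Without the low replicate 3 the log2 fold change was −0.63. Of the relatives, AMOT was at 0 in all libraries, and AMOTL1 had 6.89 to 32.3 CPM without glucose and 21.1 to 26.5 CPM with glucose (log2 fold change −0.49, edgeR adjusted p = 0.426).

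LATS2 encodes the kinase that phosphorylates YAP and is raised by it, a negative feedback. Its level was 50.5, 44.8 and 66.7 CPM without glucose and 76.5, 61.0 and 55.6 CPM with glucose. The groups overlapped (log2 fold change −0.25, 95% interval −0.73 to 0.23, edgeR adjusted p = 0.441). LATS1, its partner kinase, had 6.73, 11.2 and 9.65 CPM without glucose, against 12.7, 14.7 and 13.7 CPM with glucose. These groups did not overlap, but LATS1 did not pass (log2 fold change −0.58 ± 0.25, SE, edgeR adjusted p = 0.116). The log2 ratio of LATS2 to LATS1 counts, 2.56 ± 0.49 without glucose and 2.22 ± 0.32 with glucose (SD, n = 3 each), overlapped between the groups (exact permutation test, two-sided p = 0.4).

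AJUBA encodes a LIM protein that binds LATS kinases at junctions under tension and restrains them. It had 82.1, 124 and 98.0 CPM without glucose, against 128, 95.8 and 82.8 CPM with glucose. The ranges nearly coincided, with a log2 fold change of −0.01 (95% interval −0.51 to 0.49, edgeR adjusted p = 0.982), and the sign turned in 3 of the 6 fits that left out 1 library. LIMD1, a LIM protein of the same family, fell to 60.4, 55.9 and 51.7 CPM without glucose, against 102, 99.8 and 69.4 CPM with glucose. Its log2 fold change was −0.69 ± 0.21 (SE, edgeR adjusted p = 0.0356), a call that held on leaving out glucose-fed replicate 3 (0.0269) and on no other such omission (0.0588, 0.0699 and 0.116 for glucose-free replicates 1, 2 and 3, and 0.0744 and 0.120 for glucose-fed replicates 1 and 2).

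**Figure D3:**
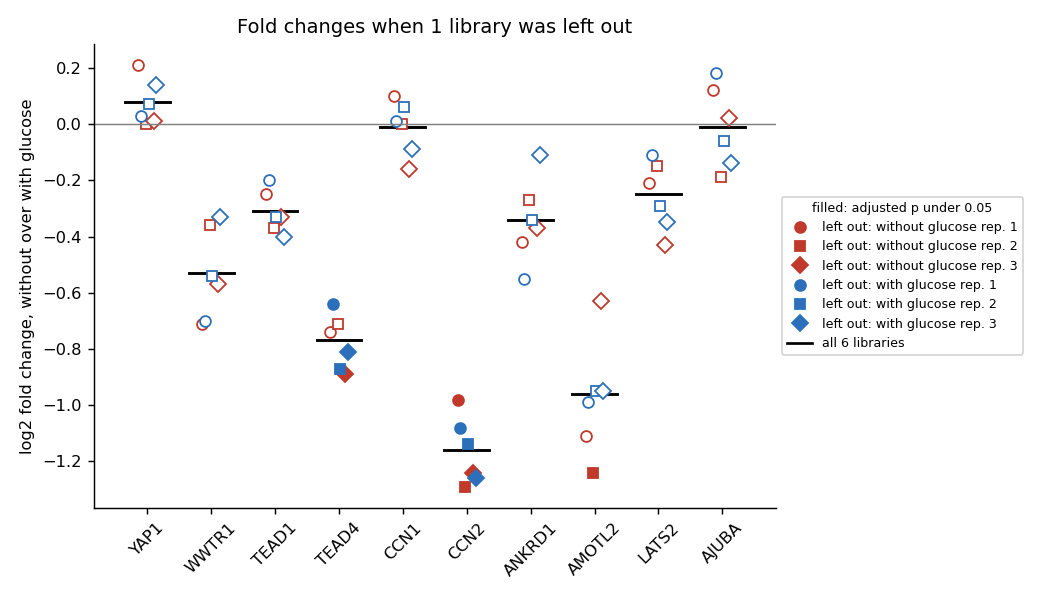
Log2 fold change (without over with glucose) of each of the 10 genes when 1 library was left out, with the value from all 6 libraries as a black line. Filled symbols passed at an adjusted p under 0.05 by the edgeR quasi-likelihood test. CCN2 is filled 6 times, TEAD4 4 times and AMOTL2 1 time.

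TEAD proteins bind the sequence GGAATG, and the promoters of the targets are shown because CCN2 and AMOTL2 fell where ANKRD1 did not pass. RefSeq windows (GRCh38.p14) from 250 bases before to 50 bases after an annotated start were held for 7 of the 10 members, in 10 windows. CCN1, TEAD1 and TEAD4 had no window, so their promoters were not searched. Both strands were searched, and capitals mark GGAATG or its reverse complement CATTCC. Each window is written 5′ to 3′ on the strand of its gene, the minus strand for CCN2, AMOTL2 and ANKRD1 and the plus strand for AXL, a signature target that rose.
CCN2, chr6:131951323-131951622: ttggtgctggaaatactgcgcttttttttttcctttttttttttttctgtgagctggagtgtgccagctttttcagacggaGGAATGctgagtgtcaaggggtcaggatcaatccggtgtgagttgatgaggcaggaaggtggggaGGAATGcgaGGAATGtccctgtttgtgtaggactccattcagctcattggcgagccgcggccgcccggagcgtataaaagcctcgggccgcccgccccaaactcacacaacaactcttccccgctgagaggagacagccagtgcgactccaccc
AMOTL2, chr3:134374398-134374697: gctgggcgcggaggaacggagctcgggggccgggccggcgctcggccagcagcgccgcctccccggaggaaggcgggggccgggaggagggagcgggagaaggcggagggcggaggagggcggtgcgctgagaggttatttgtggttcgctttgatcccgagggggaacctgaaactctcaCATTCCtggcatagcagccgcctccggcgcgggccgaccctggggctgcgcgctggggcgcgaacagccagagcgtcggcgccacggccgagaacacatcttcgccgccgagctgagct
ANKRD1, chr10:90921038-90921337: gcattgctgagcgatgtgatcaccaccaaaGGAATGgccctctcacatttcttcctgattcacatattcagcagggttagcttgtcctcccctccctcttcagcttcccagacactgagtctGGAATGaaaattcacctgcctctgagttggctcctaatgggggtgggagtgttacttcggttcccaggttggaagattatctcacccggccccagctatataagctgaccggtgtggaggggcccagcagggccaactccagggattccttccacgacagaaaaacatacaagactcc
AXL, chr19:41226505-41226804: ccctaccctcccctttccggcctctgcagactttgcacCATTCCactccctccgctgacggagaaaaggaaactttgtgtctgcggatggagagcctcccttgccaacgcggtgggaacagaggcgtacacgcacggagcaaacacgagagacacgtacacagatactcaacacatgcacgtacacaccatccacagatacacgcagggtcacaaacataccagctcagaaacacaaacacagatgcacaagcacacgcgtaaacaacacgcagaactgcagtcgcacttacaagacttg

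The CCN2 window held 3 matches, whose first bases lay 169, 104 and 95 bases before the start, and ANKRD1 held 2, at 220 and 128 bases before it. AMOTL2 held 1 match, on the reverse strand 69 bases before the second of its 2 listed starts. Among all 35116 windows of the same length 14.0% held at least 1 match and 0.128% held 3 or more. YAP1, LATS2 and AJUBA also held 1 match in a window, so 6 of the 7 members with a window had at least 1, and WWTR1 had none in either of its 2 windows. Counted by window, as the 14.0% is, 6 of the 10 member windows held a match. The AXL window shown held 1 match, its other window none, and the windows of FJX1, RBMS3 and TEAD2 none. The AP-1 motif TGANTCA stood in the ANKRD1 window (7.71% of all windows), and no member window held a CArG box, the motif of serum response factor (1.29% of all windows). Matches to GGAATG were thus present in genes that fell, in genes that did not pass and in 1 that rose. They were absent from the windows of TEAD2, which fell, of FJX1 and RBMS3, which rose, and of WWTR1, which did not pass. A match is a description of the letters and not evidence of binding.

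**Figure D4:**
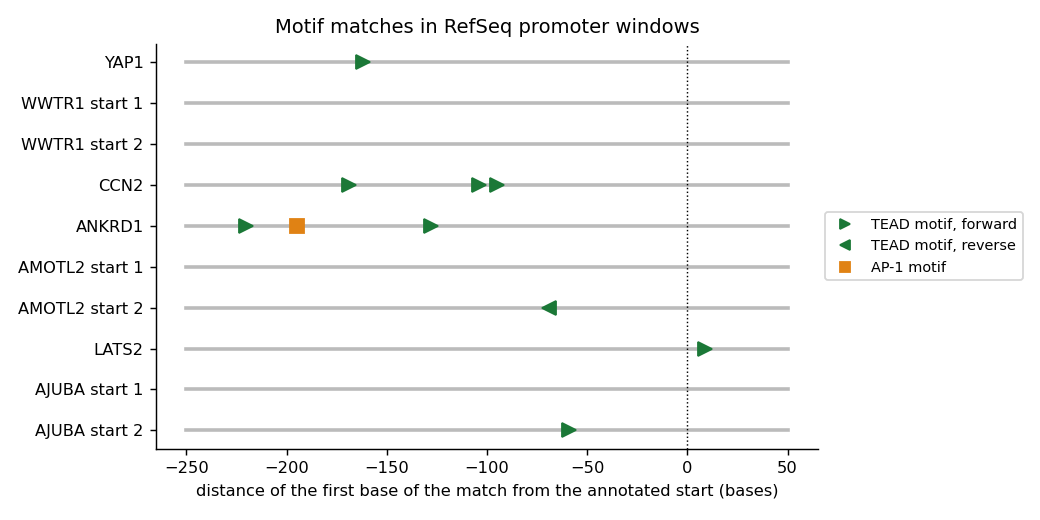
Position of TEAD motif matches (green, pointing right for the forward and left for the reverse strand) and AP-1 motif matches (orange) in the 10 RefSeq promoter windows of 7 members. The horizontal axis is the distance in bases of a match's first base from the annotated start, and CCN2 is the window with 3 TEAD matches.

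From the rest of the Hippo relay 33 kinases and upstream regulators were listed, and 30 were tested. Of these 2 rose, 1 fell and 27 did not pass, with a median log2 fold change of 0.21. For comparison, 11.6% of all genes tested were called higher and 10.7% lower. WWC3, a scaffold of the KIBRA family that promotes LATS activity, rose to 249, 215 and 282 CPM without glucose, against 155, 141 and 147 CPM with glucose. Its log2 fold change was 0.75 ± 0.19 (SE, edgeR adjusted p = 0.0162). FRMD6, a junction protein that feeds into the relay, had 42.0, 60.3 and 46.0 CPM without glucose and 27.1, 32.6 and 29.6 CPM with glucose (log2 fold change 0.73 ± 0.21, edgeR adjusted p = 0.0250). The WWC3 call was lost on leaving out glucose-free replicate 3 (0.0724) or glucose-fed replicate 2 or 3 (0.0707 and 0.0610). FRMD6 passed on leaving out glucose-free replicate 1 (0.0270) and on no other such omission (0.0549 to 0.101). FAT4, a giant cadherin, had 40 to 74 counts a library without glucose and 5 to 37 with glucose and did not pass (log2 fold change 1.13, edgeR adjusted p = 0.101).

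The core kinases themselves gave no call. STK4 had 220, 183 and 204 CPM without glucose, against 159, 172 and 164 CPM with glucose, groups that did not overlap but differed by only 0.30 on the log2 scale (edgeR adjusted p = 0.279). STK3, SAV1 (the scaffold of these kinases) and NF2 (merlin, an upstream tumor suppressor) had log2 fold changes of 0.16, 0.14 and −0.14. MOB1A and MOB1B, the LATS coactivators, were higher in every library without glucose, with log2 fold changes of 0.57 and 0.54, and did not pass (edgeR adjusted p = 0.113 and 0.115). Of the 30 tested regulators 10 were higher in every glucose-free library than in any glucose-fed one, against 21.0% of all genes tested. In the other direction 2 (LATS1 and LIMD1) were lower in every glucose-free library, against 19.4% of all genes tested.

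Of 17 genes for the other TEADs, VGLL cofactors that compete with YAP for TEAD, and the proteins that hold or degrade YAP, 14 were tested. TEAD2 fell, none rose and 13 did not pass, with a median log2 fold change of −0.11. Among all genes tested 10.7% were called lower and 11.6% higher. The 14-3-3 genes, whose products hold phosphorylated YAP in the cytoplasm, included YWHAH with a log2 fold change of −0.70 ± 0.24 (SE, edgeR adjusted p = 0.0520). YWHAH had 90.2, 103 and 82.9 CPM without glucose, against 104, 191 and 153 CPM with glucose. YWHAE and SFN had log2 fold changes of −0.39 and 0.26 (edgeR adjusted p = 0.214 and 0.390). VGLL3 and VGLL4 had −0.12 and 0.04 and did not pass, and VGLL1, VGLL2 and CSNK1E were at 0 in all libraries. CSNK1D, of the same list, had 781 to 1426 counts a library. Whether a 0 here, or for AMOT above, means no transcript or no reads assigned to the gene was not tested.

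Other targets of a published YAP/TAZ signature were compared in the same way. Of 17 such genes, all tested, 3 rose, none fell and 14 did not pass, while 11.6% of all genes tested were called higher and 10.7% lower. The count of 3 was not tested against that share. The median log2 fold change of the 17 was 0.43, against 0.02 over all genes tested. AXL, a receptor tyrosine kinase, had 107, 149 and 135 CPM without glucose and 49.7, 48.8 and 40.1 CPM with glucose. The lowest library without glucose was above the highest with glucose by a wide margin. AXL rose 2.82-fold (log2 fold change 1.50 ± 0.21, SE; edgeR adjusted p = 5.31e-04), and passed in all 6 fits that left out 1 library (adjusted p 0.00111 to 0.00500). FJX1, a secreted protein gene, had 104, 93.1 and 82.7 CPM without glucose, against 60.2, 47.2 and 44.5 CPM with glucose, and rose by 0.88 ± 0.21 on the log2 scale (edgeR adjusted p = 0.00976). That call was lost on leaving out glucose-fed replicate 2 (adjusted p = 0.050) or 3 (0.0518).

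RBMS3, an RNA-binding protein gene, rose by 0.87 ± 0.26 on the log2 scale (edgeR adjusted p = 0.0291). It had 18.8, 17.8 and 16.3 CPM without glucose and 13.1, 8.84 and 7.25 CPM with glucose. Its call held on leaving out glucose-fed replicate 1 (0.00781) and on no other such omission (0.0751, 0.0627 and 0.0584 for glucose-free replicates 1, 2 and 3, and 0.0940 and 0.117 for glucose-fed replicates 2 and 3). IGFBP3, which binds insulin-like growth factors, and MYOF, a membrane repair protein gene, had no overlap between the groups, with the glucose-free libraries higher, and did not pass (log2 fold changes 0.66 and 0.59, edgeR adjusted p = 0.0532 and 0.0622). F3, which encodes tissue factor, had the lowest value of the list, −0.69, with 20 to 41 counts a library without glucose and 24 to 53 with glucose (edgeR adjusted p = 0.216). In CPM its groups did not overlap, with 1.53 to 3.02 CPM without glucose and 3.39 to 4.51 CPM with glucose. On leaving out glucose-fed replicate 2 or 3, 1 signature target rose.

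**Figure D5:**
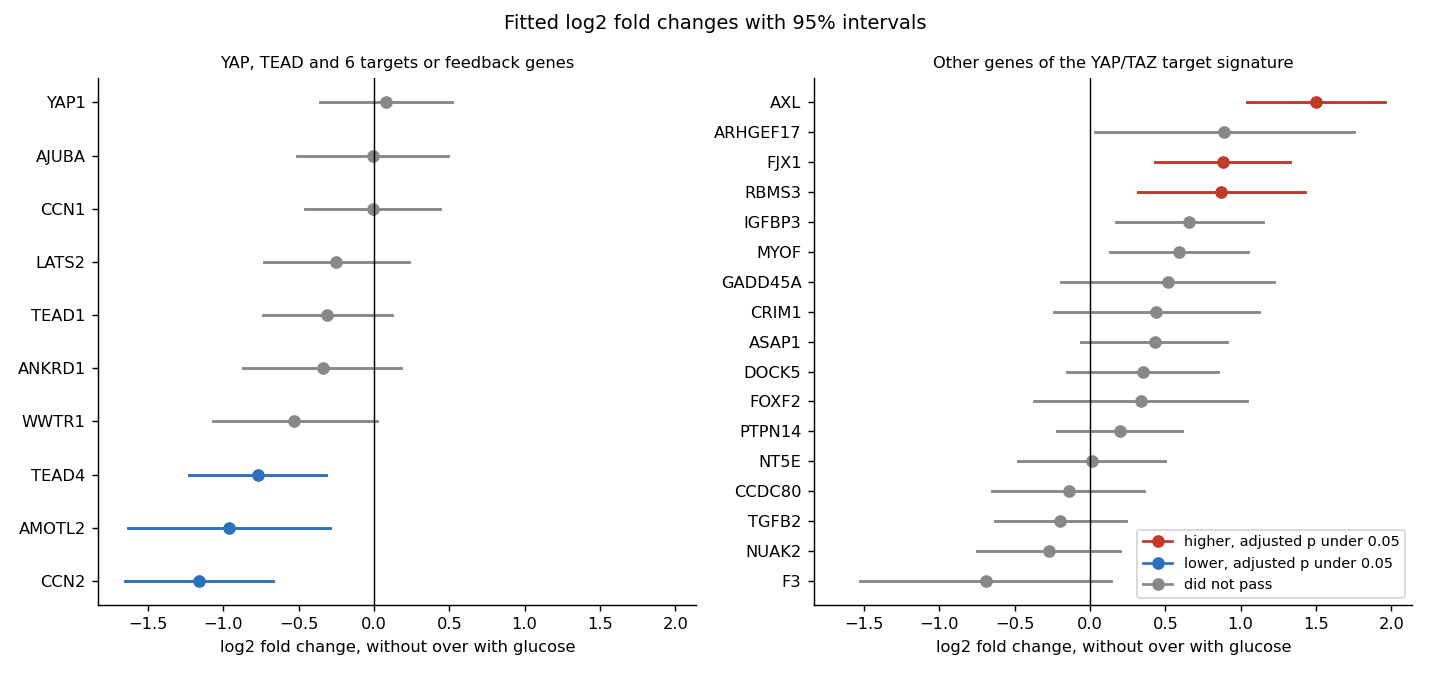
Log2 fold change (without over with glucose) with its 95% interval for the 10 genes (left) and the 17 other signature targets (right). Red intervals passed as higher, blue as lower, and grey did not pass: CCN2, AMOTL2 and TEAD4 are lower on the left, and AXL, FJX1 and RBMS3 are higher on the right.

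Several YAP targets are also driven by serum response factor with its actin-regulated MRTF cofactors, and by immediate-early signaling. Of 20 actin and MRTF-SRF genes 19 were tested: 3 rose, 1 fell and 15 did not pass, with a median log2 fold change of 0.06. The shares called over all genes tested were 11.6% higher and 10.7% lower. TAGLN, a smooth muscle actin-binding protein gene, had 78.1, 93.3 and 63.4 CPM without glucose, against 23.5, 25.1 and 25.5 CPM with glucose (log2 fold change 1.66 ± 0.21, SE, edgeR adjusted p = 2.74e-04). MYL9, a myosin light chain gene, had 58, 66 and 60 counts without glucose and 10, 9 and 25 counts with glucose and rose by 1.87 ± 0.39 on the log2 scale (edgeR adjusted p = 0.00559). FHL1, a LIM protein gene, rose by 1.70 ± 0.36 (edgeR adjusted p = 0.00521), or by 2.37 without replicate 3 with glucose. TAGLN2, a relative of TAGLN, fell with a log2 fold change of −1.20 ± 0.25 (edgeR adjusted p = 0.00547). SRF itself had 15.1 to 20.5 CPM without glucose and 18.6 to 28.0 CPM with glucose and did not pass (log2 fold change −0.24, edgeR adjusted p = 0.482). ACTB, whose signal was used to pool the libraries, was lower in every library without glucose (log2 fold change −0.45) and did not pass (edgeR adjusted p = 0.0905).

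Of 16 immediate-early genes, listed because CCN1 is one and because handling can raise them, 14 were tested. Among these 4 rose, none fell and 10 did not pass (median log2 fold change 0.55), beside 11.6% higher and 10.7% lower of all genes tested. EGR1 and JUN, transcription factor genes of that response, had log2 fold changes of 1.99 ± 0.39 and 1.37 ± 0.27 (SE, edgeR adjusted p = 0.00399 and 0.00396). FOSL1, an AP-1 subunit, rose by 0.90 ± 0.23 (edgeR adjusted p = 0.0135), but not without replicate 2 (0.0642) or 3 (0.0697) with glucose, and FOS rose to 23, 45 and 48 counts without glucose, against 3, 1 and 18 counts with glucose (log2 fold change 2.23 ± 0.65, edgeR adjusted p = 0.0274). The FOS call was lost on leaving out glucose-free replicate 2 or 3 or glucose-fed replicate 1 or 2 (0.0616 to 0.0899), and its log2 fold change was 3.64 on leaving out glucose-fed replicate 3. IER2 and ATF3 had log2 fold changes of −0.05 and −0.12. The part of handling in these values was not tested.

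The profiles most like those of the main members over the 6 libraries were found by the root-mean-square difference of log2 CPM, each centred on its own mean, among 11151 genes averaging at least 20 counts. For CCN2 they were MED31 and DOK4 (both 0.08) and GPRIN1 (0.09), each of which also fell. For CCN1 they were DDX17 (0.06), CERS2 (0.07) and UBE2R2 (0.07), and for YAP1 they were PTDSS2 (0.05), NUDT9 (0.06) and RNF130 (0.06). None of the last 6 passed (edgeR adjusted p from 0.695 to 0.994). The genes named here were picked for their likeness over the same libraries. Whether they fell or did not pass thus follows from the choice and is no separate result.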

How the data were processed

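RNA of A549 cells was primed with barcoded oligo-dT, pooled by Actb quantitative PCR and amplified for 12 cycles into strand-specific libraries, per the labels' protocols; no molecular identifiers are mentioned, so PCR copies are counted. The authors deposited raw counts of reads per gene, made with STAR and HTSeq on hg19, per the submitters' processing notes; versions, annotation and strand setting: not given in the sources used here. RefSeq places long non-coding RNAs over parts of YAP1, WWTR1, TEAD1, TEAD4, CCN2 and AJUBA, none of them in the deposited table, and without the strand setting reads of those on the opposite strand cannot be told apart from the genes' own. The 5 HTSeq summary lines stayed out of library sizes; reads in no gene were 32.8% to 36.5% and non-unique ones 18.4% to 22.2% of a library. Symbols came from RefSeq (GRCh38.p14) for 19178 of 19240 Entrez numbers, and the 123 list entries beside the members all matched; 1 listed marker is not reported here.

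The groups were compared with edgeR 4.0.16 (TMM, filterByExpr at a minimum count of 10, quasi-likelihood F test, two-sided, no covariate). The SE was worked back from the fold change and its F statistic, and 95% intervals use it with the fit's degrees of freedom. Count ratios had 0.5 added to each count. DESeq2 1.42.0, other scalings and filters, a replicate block and leaving out each library were alternatives. On simulated counts the edgeR fit was tested before use. No libraries of a group agreed within sampling noise (chi-square per degree of freedom 23.0 to 60.0). The members and lists were chosen with earlier results of these data known. Named genes are all members, the 4 genes of each pathway list and the 3 immediate-early genes with the smallest p, and the 3 profiles nearest to YAP1, CCN1 and CCN2; others were chosen after their values were seen.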

Additional observations from a re-analysis of the deposited data

How the results depend on the processing

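The 3 calls among the members (CCN2, AMOTL2 and TEAD4) held with DESeq2 size factors, library totals, the DESeq2 test, no filter on low counts and a mean of at least 20 counts. Scaling by library totals moved the median log2 fold change of all genes by −0.06. Leaving out 1 library gave 1 to 2 lower members and 0 higher, 860 to 1292 higher and 781 to 1232 lower genes over the whole table, 0 to 3 higher and 0 to 1 lower Hippo regulators, 1 to 2 lower genes of the TEAD, VGLL and YAP-retention list, and 1 to 3 higher signature targets. On such omissions CCN1 ran from −0.16 to 0.10, turning sign for glucose-free replicates 1 (0.10) and 2 (0.00) and glucose-fed replicates 1 (0.01) and 2 (0.06). AJUBA ran from −0.19 to 0.18, turning for glucose-free replicates 1 (0.12) and 3 (0.02) and glucose-fed replicate 1 (0.18). YAP1 ran from −0.00, for glucose-free replicate 2, to 0.21. The TEAD, VGLL and YAP-retention list had 2 lower genes, TEAD2 and YWHAH, with either other scaling, with the DESeq2 test and with no filter. With the DESeq2 test 5 signature targets were higher, and 2 actin and MRTF-SRF genes were lower. The cause was not tested.

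Same-numbered libraries did not deviate together (correlations −0.35 to 0.05), and for differently numbered ones the correlations ran from −0.28 to 0.33. These values do not show whether a replicate number marks a shared batch. The replicate block is therefore given only as an alternative. With it, 0 Hippo regulators were higher and 0 lower, 2 members were lower (TEAD4 had an adjusted p of 0.0507), and the exact sign-flip p of the CCN1 to CCN2 ratio was 0.25, the smallest that 3 pairs allow. Each count ratio kept its sign with no pseudocount, with 5 added, and on leaving out any 1 library (CCN1 to CCN2 1.07 to 1.30). The lowest count of a member in a library was 349. Counts cover counting error only.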
